A study of Mus musculus with 6 samples.

Results

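Keratins are the proteins of the intermediate filaments of epithelial cells. A filament is built from pairs of one acidic type I and one basic type II keratin, and the pair in use changes as a cell leaves the basal layer and differentiates, so that the keratin genes of a tissue record which epithelial layers it holds. In the tongue, Krt5 and Krt14 mark the basal progenitors that feed both taste buds and the surrounding epithelium, Krt8 and Krt18 mark differentiated taste cells, Krt4 and Krt13 mark the soft non-taste epithelium, and hard keratins of the hair type are made in filiform papillae. The genes described here are the 52 rows of a table of 23361 genes whose symbol begins with Krt and a digit, with the keratin-associated Krtap genes left out.

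The data are RNA sequencing of isolated taste cells from the circumvallate and foliate papillae of C57BL/6 mice at 2 and 6 months of age. The epithelium was loosened with collagenase and dispase and peeled off, taste cells were drawn from it by suction, and those of 4 mice at 2 months or 3 mice at 6 months were pooled for each of the 3 libraries of an age. The sex of the mice is not given in the sources used here. The table holds the authors' single FPKM value (fragments scaled for transcript length and sequencing depth) of each gene at each age, so no SD is given below, no difference was tested here, and the values used here do not show whether a difference exceeds the spread between pools. Changes are differences of log2(FPKM + 1), 6 minus 2 months, which understate the change of weakly expressed genes. Because whole pools were sequenced, fewer cells of a type and less RNA per cell cannot be told apart.

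Taste cell RNA was present at both ages, together with RNA of cornified epithelium. The 5 listed type II taste cell genes, among them the transduction channel Trpm5, summed to 212 FPKM at 2 months against 219 FPKM at 6 months. The 5 type III genes summed to 27.0 and 30.5 FPKM, and of the 2 type I genes Entpd2 was at 66.1 and 57.7 FPKM and Slc1a3 at 0.710 and 0.988 FPKM. The 6 measured cornified epithelium genes summed to 2307 FPKM at 2 months against 1686 FPKM at 6 months, with 3 of the 5 above a mean of 1 FPKM lower at 6 months and Flg2 near 0 at both ages. Summed over each list, the 4 serous gland genes were at 115 and 27.1 FPKM, with all 3 above a mean of 1 FPKM lower at 6 months, and the 6 skeletal muscle genes were at 9.06 and 20.5 FPKM, with all 5 above that mean higher. The 5 fibroblast genes were at 42.5 and 27.6 FPKM, nearly all of it from Dcn, the 1 gene above that mean, which was lower. Col1a1, Col1a2, Col3a1 and Lum were far below that mean at both ages, so the fibroblast sum is in effect that of a single gene. The 5 leukocyte genes were at 314 and 279 FPKM, most of it from Lyz2. Of the leukocyte genes above that mean, Lyz2 was the 1 lower, and Ptprc, Cd52 and Csf1r were the 3 higher. The part of these other cells in the keratin values was not tested.

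Of the 52 keratins, 40 had a value above 0 at both ages, 9 were listed at 0 at one age and 3 were listed at 0 at both. An expression limit, a mean of 1 FPKM or more with a value above 0 at both ages, was passed by 26, and these are the keratins compared below. The other 14 with values at both ages had means between 0.0139 and 0.686 FPKM, and 7 of the 14 were lower at 6 months. The 26 comprised 15 of the 28 type I and 11 of the 24 type II genes. Apart from Krt85, which was at 0.706 FPKM at 2 months against 0.436 FPKM at 6 months, the members were located in the GRCm38 annotation, 27 on chromosome 11 and 24 on chromosome 15. Krt18, a type I gene, lies beside Krt8 on chromosome 15.

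**Figure D1:**
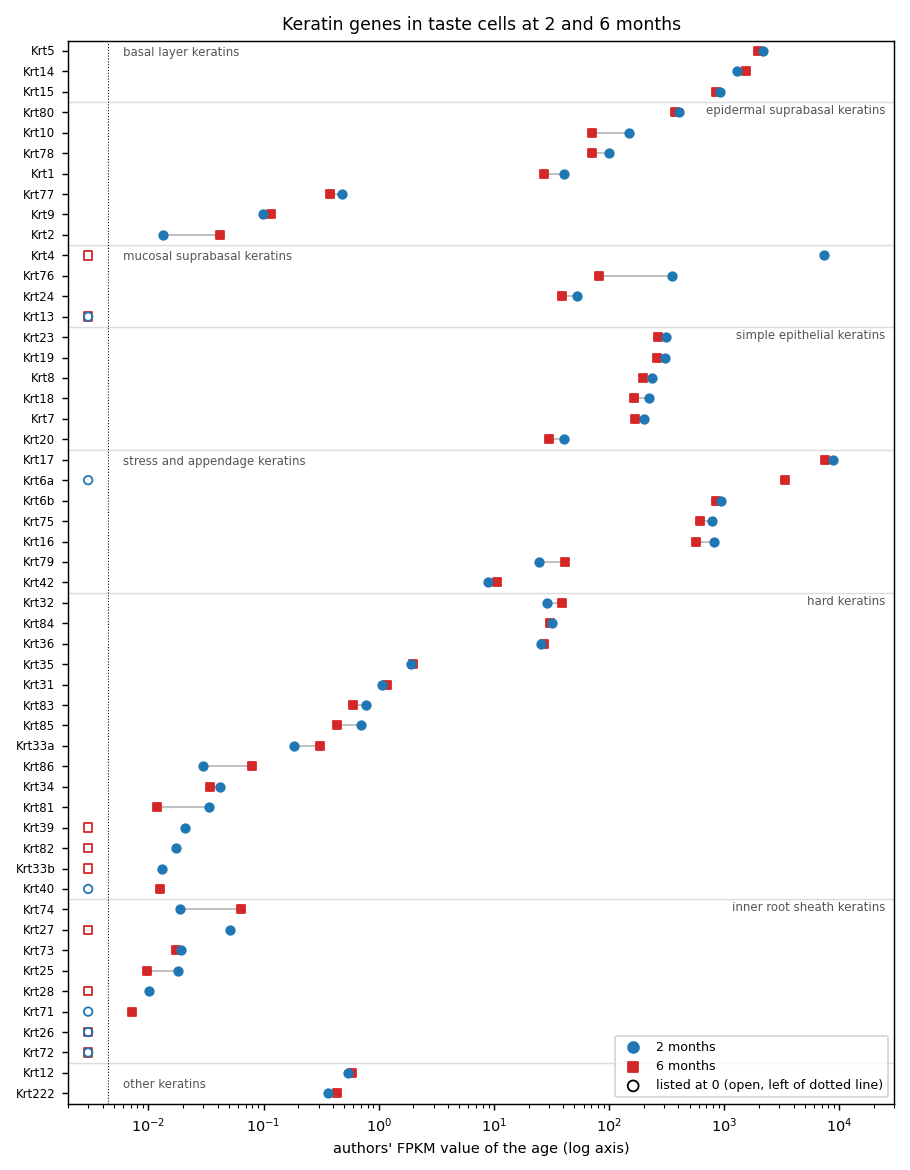
FPKM of all 52 keratins at 2 months (circles) and 6 months (squares) on a log axis, grouped by role, with open symbols left of the dotted line for values listed at 0. Krt17 is highest at both ages, with 8822 and 7465 FPKM, Krt4 and Krt6a have a high value at only one age, and most hard and inner root sheath keratins lie below 1 FPKM.

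Krt4, Krt6a and Krt13 could not be compared between the ages. Krt4, the type II keratin of soft mucosal epithelium, was listed at 7334 FPKM at 2 months, the third highest value of the table, and at 0 at 6 months. Krt6a, a type II keratin of filiform papillae and of wounded epithelium, was listed at 0 at 2 months and at 3391 FPKM at 6 months. Krt13, the type I partner of Krt4, was listed at 0 at both ages. Whether these zeros stand for absent RNA or for an estimate that was not made cannot be told from the table, and no fold change is given for them. Over all genes, 74 were listed at 0 at one age and at 5 FPKM or more at the other. Of these, 71 were microRNA or small nucleolar RNA genes, and the other 3 were Krt4, Krt6a and Gm12238. None of 10 genes that every cell uses, such as Actb and Gapdh, was listed at 0 at either age.

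Krt6b, the neighbour and close copy of Krt6a, had values at both ages, with 940 FPKM at 2 months against 856 FPKM at 6 months. Of the stretches of 50 bases in the Krt6b transcript, 44.5% also occur in Krt6a, and 39.9% of those of Krt6a occur in Krt6b. Reads from such stretches can be assigned to either gene, so the value of Krt6b is uncertain. The other 7 keratins listed at 0 at one age were Krt27, Krt28, Krt33b, Krt39 and Krt82, at 0 at 6 months, and Krt40 and Krt71, at 0 at 2 months. Their values at the other age lay between 0.00720 and 0.0514 FPKM. Krt26 and Krt72 were at 0 at both ages. These 9 genes belong to the hair shaft and the inner root sheath of the hair follicle.

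Keratins were among the most abundant transcripts. Krt17, a type I keratin of stressed epithelium and of epithelial appendages, ranked 2nd of all genes at 2 months with 8822 FPKM and 3rd at 6 months with 7465 FPKM. In each age 4 keratins were among the 100 highest genes. These were Krt17, Krt4, Krt5 and Krt14 at 2 months and Krt17, Krt6a, Krt5 and Krt14 at 6 months. The 5 keratins of highest mean among those with values at both ages, Krt17, Krt5, Krt14, Krt6b and Krt15, held 77.3% of the summed FPKM of the 26 keratins at 2 months and 80.4% at 6 months. All keratins together held 3.68% of the summed FPKM of the table at 2 months and 2.87% at 6 months. These shares count Krt4 at 2 months only and Krt6a at 6 months only. Over genes with values at both ages, without microRNA and small nucleolar RNA genes, the keratin share was 2.91% and 2.67%.

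Most of the 26 keratins had a somewhat lower value at 6 months, and 2 were past a 2-fold difference. Lower values were seen for 19 of the 26 (73.1%), beside 53.7% of the 12573 genes of the table that passed the limit. The median change of the 26 keratins was -0.24 on the log2(FPKM + 1) scale, with quartiles of -0.43 and 0.01, beside a median of -0.01 and quartiles of -0.10 and 0.08 over those 12573 genes. A difference of at least 2-fold toward lower values was reached by Krt76 and Krt10, 2 of 26, beside 0.66% of all genes compared. Toward higher values it was reached by 0 of 26, beside 0.318%. At 1.5-fold, the same 2 keratins were lower, beside 1.34% of all genes, and Krt79 was higher, beside 0.811%. Scaling both ages to the same summed FPKM without microRNA and small nucleolar RNA genes moved the share of lower values to 69.2% of the keratins and 29.1% of all genes, and the change of Krt10 from -1.08 to -0.98.

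**Figure D2:**
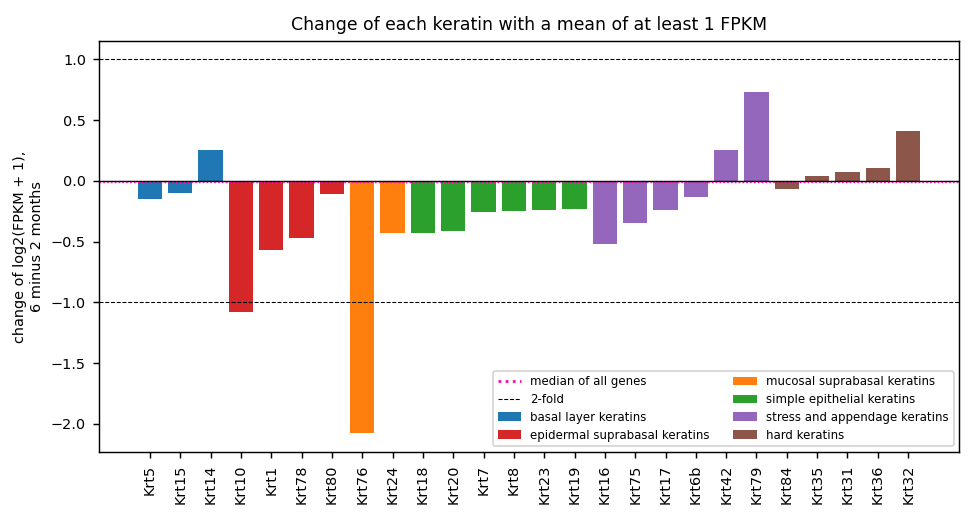
Change of log2(FPKM + 1), 6 minus 2 months, of the 26 keratins past the expression limit, coloured by role, with dashed lines at 2-fold and a dotted line at the median of all genes. Krt76 (-2.08) and Krt10 (-1.08) lie past the lower line, the 6 simple epithelial keratins all lie between -0.43 and -0.23, and 4 of the 5 hard keratins lie above 0.

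The suprabasal keratins, which replace the basal pair once a cell leaves the basal layer, held the largest differences. Krt76, a type II keratin of the hard-wearing mucosa of palate and gums, was at 352 FPKM at 2 months against 82.4 FPKM at 6 months, 0.234 times as high, a change of -2.08. Krt10, the type I keratin of cornifying epidermis, was at 150 FPKM and 70.5 FPKM, 0.471 times as high, a change of -1.08. Its type II partner Krt1 was at 40.7 FPKM and 27.2 FPKM, a change of -0.57. The Krt1 gene on chromosome 15 and the Krt10 gene on chromosome 11 were thus both lower at 6 months, with the larger difference in Krt10.

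Krt78, a further type II keratin, was at 99.6 FPKM at 2 months against 71.6 FPKM at 6 months, a change of -0.47. Krt24 was at 52.6 FPKM and 38.7 FPKM, a change of -0.43. Krt80, a type II keratin found in many epithelia, was at 404 FPKM and 375 FPKM, a change of -0.11. Of the 7 epidermal suprabasal keratins, 4 were past the limit. These 4 had a median change of -0.52 and were all lower at 6 months, beside 53.7% of all genes compared. The remaining 3, Krt2, Krt9 and Krt77, were below 0.5 FPKM at both ages, among them the keratins of the upper epidermis (Krt2) and of palms and soles (Krt9).

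The upstream sequences of the keratins with the largest differences in each direction are shown as a description. Any part of these sequences in the differences was not tested. Shown are the 250 bases before the start of the gene in RefSeq on GRCm38.p6, all of minus-strand genes and written 5′ to 3′ along the gene. The genes are Krt76 (chr15:101892921-101893170), Krt10 (chr11:99389365-99389614), Krt79 (chr15:101940325-101940574) and Krt32 (chr11:100088270-100088519). Capitals mark matches to 3 motifs searched on both strands, the TATA box letters TATAAA, the AP-1 letters TGANTCA and the GC box letters GGGCGG.
Krt76: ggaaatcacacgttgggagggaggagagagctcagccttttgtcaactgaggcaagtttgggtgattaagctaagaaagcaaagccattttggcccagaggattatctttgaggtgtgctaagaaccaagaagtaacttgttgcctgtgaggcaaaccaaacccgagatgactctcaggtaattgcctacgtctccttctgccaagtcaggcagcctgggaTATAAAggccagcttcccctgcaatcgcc
Krt10: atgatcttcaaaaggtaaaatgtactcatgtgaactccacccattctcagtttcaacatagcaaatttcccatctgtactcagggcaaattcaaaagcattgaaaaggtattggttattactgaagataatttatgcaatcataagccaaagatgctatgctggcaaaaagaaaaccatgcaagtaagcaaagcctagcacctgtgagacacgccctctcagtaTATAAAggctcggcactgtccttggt
Krt79: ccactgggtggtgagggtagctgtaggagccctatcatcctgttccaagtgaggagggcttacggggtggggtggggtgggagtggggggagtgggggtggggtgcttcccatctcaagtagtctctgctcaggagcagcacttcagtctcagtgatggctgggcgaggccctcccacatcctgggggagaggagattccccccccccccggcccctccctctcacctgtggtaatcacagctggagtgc
Krt32: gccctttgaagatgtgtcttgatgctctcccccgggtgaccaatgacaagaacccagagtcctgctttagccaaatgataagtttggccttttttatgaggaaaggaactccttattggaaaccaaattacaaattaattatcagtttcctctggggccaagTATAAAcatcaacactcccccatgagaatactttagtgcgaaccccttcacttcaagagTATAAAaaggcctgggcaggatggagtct

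The TATA letters of Krt76 began 29 bases before the start and those of Krt10 began 26 bases before it. Krt32, which was higher at 6 months, held them at 2 places, beginning 88 and 29 bases before the start, and Krt79 held no match to any of the motifs. Of the 26 keratins, 18 had an upstream sequence in the RefSeq table. Krt1, Krt6b, Krt15, Krt16, Krt17, Krt19, Krt35 and Krt80 had none and were not searched. The sequences of Krt14 (chr11:100206031-100206280) and Krt7 (chr15:101412153-101412402) lie wholly inside the genes as located in the GRCm38 annotation. These 2 thus precede a different start. TATAAA occurred in 6 of the 18 (33.3%), namely Krt10, Krt20, Krt31, Krt32, Krt76 and Krt84. The match in Krt84 lay farther out, beginning 206 bases before the start on the opposite strand. It occurred in 12.4% of all 32851 upstream sequences of the table and in 6.62% of the 11789 that belong to the genes compared. The AP-1 letters, searched because the study followed an AP-1 factor, occurred in 0 of the 18, beside 6.75% of all upstream sequences. They occurred in 4.85% of the upstream sequences of the genes compared. Among the keratins outside the 26 they occurred in Krt13, which has 2 upstream sequences in the table for different starts, with matches in both. The GC box letters occurred in 2 of the 18, Krt7 and Krt75 (11.1%), beside 32.7% of all upstream sequences and 57.3% of those of the genes compared. A match is a description of these letters only, and the lack of one says nothing of the factors.

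The simple epithelial keratins, among them those of taste bud cells, were lower at 6 months in all 6 genes by similar amounts, between -0.43 and -0.23. Of all genes compared, 53.7% were lower. Krt8, the type II keratin of differentiated taste cells, was at 234 FPKM at 2 months against 197 FPKM at 6 months, a change of -0.25. Its partner Krt18 was at 224 FPKM and 166 FPKM, a change of -0.43. Krt19, a type I keratin of simple epithelia and taste buds, was at 308 FPKM and 262 FPKM. Krt7, a type II keratin of ducts and glands, was at 201 FPKM and 167 FPKM. Krt20, a type I keratin best known from gut epithelium and also made in taste buds, was the lowest of the group, with 40.6 FPKM and 30.3 FPKM, a change of -0.41.

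Krt23, a type I keratin, was at 312 FPKM at 2 months against 264 FPKM at 6 months. The 6 genes summed to 1320 FPKM at 2 months against 1086 FPKM at 6 months. Over the same ages the type II and type III taste cell genes had median changes of 0.05 and 0.16, and of the type I genes Entpd2 had a change of -0.19 and Slc1a3, which did not pass the limit, of 0.22. Processed copies bear on Krt8, since 26.9% of the stretches of 50 bases in its transcript also occur in Krt8-ps.

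The basal layer keratins were high at both ages and differed little. Krt5, the type II keratin of basal cells, was at 2180 FPKM at 2 months against 1962 FPKM at 6 months, a change of -0.15. Krt14, its type I partner, was at 1287 FPKM and 1533 FPKM, a change of 0.25. Krt15, a type I keratin of basal cells, was at 912 FPKM and 849 FPKM, a change of -0.10. Krt14 was thus higher at 6 months while Krt5 and Krt15 were lower. Stretches of 50 bases shared with Krt16 made up 11.4% of the Krt14 transcript.

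Among the stress and appendage keratins, 4 of the 6 compared were lower at 6 months, beside 53.7% of all genes compared. Krt79 and Krt42 were higher. Krt16, a type I keratin of filiform papillae and of wounded epithelium, was at 821 FPKM at 2 months against 573 FPKM at 6 months, a change of -0.52. Krt75, a type II keratin of the companion layer of hair follicles, was at 783 FPKM and 614 FPKM, a change of -0.35. Krt17 had a change of -0.24 and Krt6b of -0.14. Krt79, a type II keratin of the upper hair follicle and of sebaceous ducts, was at 24.8 FPKM at 2 months against 41.8 FPKM at 6 months, a change of 0.73, the highest of the 26. Krt42, a type I keratin, was at 8.85 FPKM and 10.7 FPKM, a change of 0.25. The value of Krt16 is uncertain, since 37.6% of the 50-base stretches of its transcript occur in other genes, most of them in Gm11597.

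Hard keratins, which form hair, nail and the spines of filiform papillae, were detected through a few members. Of 15 in the table, 5 passed the limit, and 4 of the 5 were higher at 6 months, with a median change of 0.07. Over all genes compared, 5823 of 12573 were higher. Krt32, a type I keratin of the hair cuticle, was at 28.8 FPKM at 2 months against 38.7 FPKM at 6 months, a change of 0.41. Krt36, a type I keratin of filiform papillae, was at 25.4 FPKM and 27.4 FPKM. Krt84, a type II hard keratin also made in filiform papillae, was at 32.0 FPKM and 30.5 FPKM, a change of -0.07. Under scaling to the same summed FPKM, Krt84 was the 1 keratin of the 26 whose direction changed.

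Krt35 was at 1.90 FPKM at 2 months against 1.98 FPKM at 6 months, and Krt31 at 1.07 FPKM and 1.17 FPKM. Of the stretches of 50 bases of Krt31, 20.8% also occur in Krt34. All 8 inner root sheath keratins were below 0.1 FPKM at both ages, 2 of them at 0 at both ages and 3 at one age. Krt12, the type I keratin of the cornea, was at 0.543 FPKM and 0.583 FPKM, and Krt222 was at 0.362 FPKM and 0.432 FPKM.

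Partner genes were not at equal levels, and their ratios moved by different amounts. Levels per transcript length of Krt5 were 1.69 times those of Krt14 at 2 months and 1.28 times at 6 months. For Krt1 and Krt10 the ratio was 0.272 at 2 months and 0.385 at 6 months. Krt8 and Krt18 stood nearest to equal levels, with ratios of 1.05 and 1.19. Krt6b stood at 0.107 times Krt17 at 2 months and 0.115 times at 6 months. Krt6a stood at 5.92 times Krt16 at 6 months, and no ratio was formed for that pair at 2 months or for Krt4 and Krt13 at either age. Krt6a, Krt6b and Krt16 share 57.5%, 50.1% and 37.6% of their stretches of 50 bases with other genes. The ratios that involve them are therefore uncertain. Over the 26 keratins, type II genes summed to 5292 FPKM at 2 months against 4424 FPKM at 6 months, and type I genes to 12995 FPKM and 11330 FPKM. These sums leave out the type II genes Krt4 and Krt6a. With all listed values counted, type II genes summed to 12627 FPKM and 7817 FPKM and type I genes to 12996 FPKM and 11332 FPKM. The sums of the 26 thus do not give the balance of the types.

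By type, 9 of 15 type I and 10 of 11 type II keratins were lower at 6 months, with medians of -0.23 and -0.25. Of all genes compared, 53.7% were lower, with a median of -0.01. Along chromosome 11, the 4 compared hard keratins Krt31, Krt32, Krt35 and Krt36 lie next to each other. All had higher values at 6 months, as did 5823 of the 12573 genes compared. Their changes were 0.07, 0.41, 0.04 and 0.10, beside an upper quartile of 0.08 over those genes. The values of Krt31 and Krt35 were low at both ages. Krt10, Krt20 and Krt23, in the order Krt10, Krt12, Krt20 and Krt23, were lower. On chromosome 15, 11 of the 12 compared keratins were lower, and Krt79 was the exception. Krt76 (101884351 to 101892920), Krt4 and Krt79 (101929332 to 101940324) are neighbours there on GRCm38. The largest differences toward lower and toward higher values thus lay on either side of Krt4, which could not be compared.

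**Figure D3:**
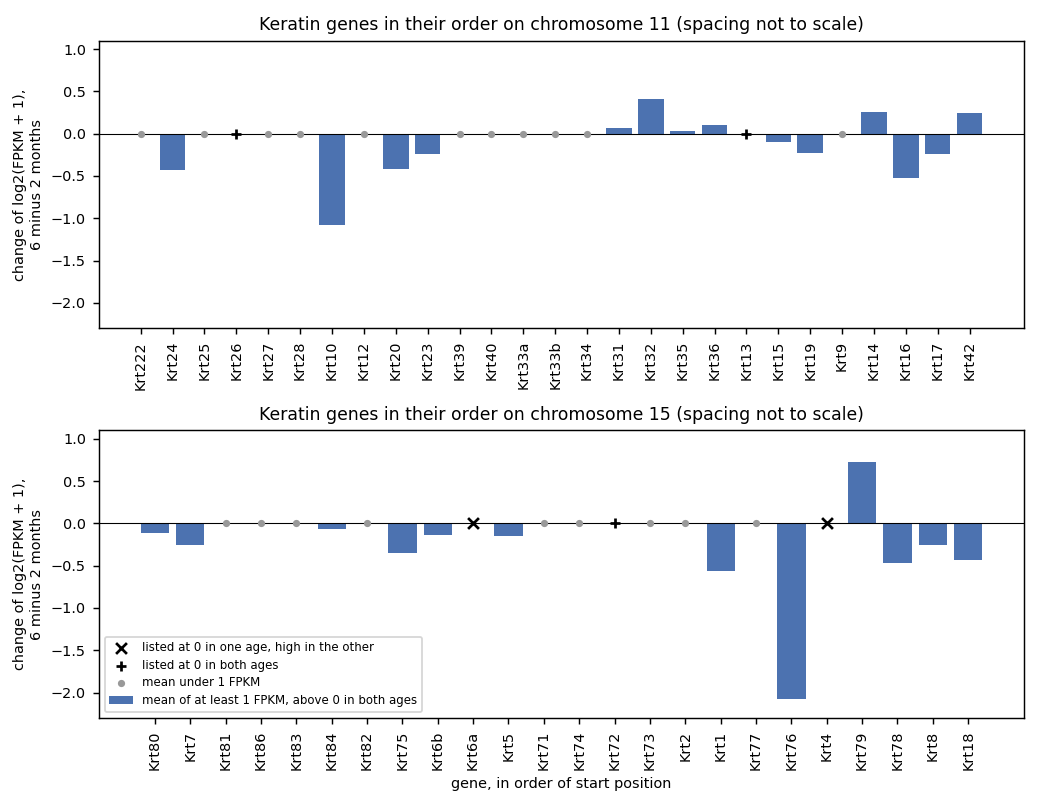
Change of log2(FPKM + 1), 6 minus 2 months, of the keratins in their order on chromosome 11 (upper panel) and chromosome 15 (lower panel), with bars for the compared genes, dots for means under 1 FPKM, plus signs for genes listed at 0 at both ages and crosses for Krt4 and Krt6a. The adjacent hard keratins of chromosome 11 have bars above 0, which are small apart from that of Krt32 (0.41). Krt76 (-2.08) and Krt79 (0.73) stand on either side of Krt4, which could not be compared.

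The proteins that anchor and bundle keratin filaments were read from lists beside the keratins. Filament linkers, which tie keratins to desmosomes and hemidesmosomes, were higher at 6 months in 9 of 10 genes, with a median change of 0.23. Over all genes compared, 5823 of 12573 were higher, with a median change of -0.01. Desmoplakin (Dsp) was at 611 FPKM at 2 months against 747 FPKM at 6 months, periplakin (Ppl) at 214 FPKM and 257 FPKM, and none of the 10 reached 2-fold. Of the 6 measured proteins that bundle keratins or aggregate with them in cornifying cells, 4 passed the limit, 3 of them with lower values. Trichohyalin (Tchh), which cross-links keratin in the inner root sheath and in filiform papillae, was at 23.7 FPKM and 9.17 FPKM, a change of -1.28. Hornerin (Hrnr) was at 6.98 FPKM and 2.64 FPKM, a change of -1.13. Repetin (Rptn) was at 291 FPKM and 145 FPKM, just short of 2-fold on this scale.

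The transcription factors listed here as acting on keratin genes differed less. Fos, Fosb and Jun, which the paper reports as significantly lower in the older mice, were not on the list. Of the 17 listed factors, 14 passed the limit, 5 with lower and 9 with higher values. Their median change was 0.05, with a range from -0.46 to 0.43. The lowest change was that of Ovol1, a factor of epidermal differentiation, at 81.7 FPKM at 2 months against 59.2 FPKM at 6 months. Trp63, the factor that sets the stratified epithelial programme, was at 106 FPKM and 94.1 FPKM. Foxn1, which acts on hard keratin genes, was at 13.4 FPKM and 15.5 FPKM, and Hoxc13, which does so too, was at 0.994 FPKM and 0.674 FPKM. Of the other intermediate filament genes, 5 of 13 passed the limit, 2 lower and 3 higher, and the lamin gene Lmna was at 264 FPKM and 300 FPKM.

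Of the cornified epithelium markers, whose sums are given above, loricrin (Lor) was at 1292 FPKM at 2 months against 733 FPKM at 6 months, a change of -0.82, and corneodesmosin (Cdsn) at 147 FPKM and 63.9 FPKM, a change of -1.19. Involucrin (Ivl) had a change of -0.59. The cross-linking enzyme Tgm3 was at 828 FPKM and 860 FPKM and the protease Casp14 at 7.87 FPKM and 8.30 FPKM. Krt10, Krt1 and Krt76 were lower together with Lor, Cdsn and Ivl, while Tgm3 and Casp14 were not lower. Whether the amount of cornified epithelium in the pools differed was not tested.

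**Figure D4:**
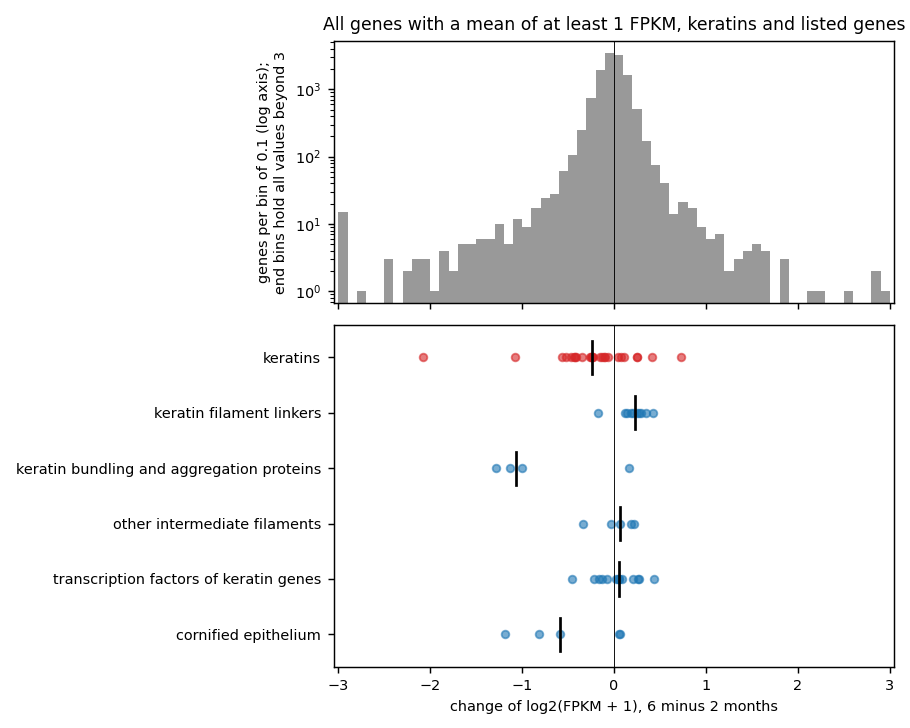
Upper panel, number of genes per bin of the change of log2(FPKM + 1), 6 minus 2 months, over the 12573 genes compared, on a log axis. Lower panel, the same change for the compared genes of each list, with 1 point a gene and a bar at the median, which is -0.24 for keratins, 0.23 for filament linkers and -1.07 for bundling and aggregation proteins.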

How the data were processed

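RNA of pooled taste cells was sequenced after poly(A) selection with TruSeq kits, with 3 libraries for each age. Reads were aligned by the authors with TopHat2 2.0.7 on GRCm38/mm10 and a RefSeq annotation. They quantified genes with Cufflinks 2.1.1 and compared ages with Cuffdiff, per the methods and the submitters' processing notes. The authors deposited 1 FPKM value per gene and age and a p-value of their own comparison, which was not used here. The library normalization of Cuffdiff is not given in the sources used here. The value columns were assigned to ages by the group letters of the sample titles.

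Changes were computed with a pseudocount of 1 where the mean of both ages was 1 FPKM or more, and genes listed at 0 at an age were kept apart, for keratins and all genes alike. With 1 value per age, no test was possible, and a 2-fold difference was used as a fixed size. The computation was tested on simulated data. Depth per library is unknown. Keratins are named with values where they are partners in the listed pairs, have a mean of at least 10 FPKM or differ at least 2-fold, and others were named after their values were seen. The members and lists were chosen with earlier results of these data known. Positions, overlaps and 50-base stretches shared between transcripts on either strand came from GENCODE M21 (GRCm38), and upstream sequences from RefSeq, which matched 35 keratins. Opposite-strand genes overlap exons of Krt10, Krt32, Krt5, Krt6a, Krt6b, Krt7, Krt75, Krt76, Krt8, Krt80 and Krt12, and whether counting used strand is not given in the sources used here, so reads of such pairs may not be separated. Alternatives were other filters, pseudocounts, scalings and fold sizes. Python 3.11.15, numpy 2.4.6, pandas 2.3.3 and matplotlib 3.10.9 were used.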

Additional observations from a re-analysis of the deposited data

How the results depend on the processing

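No paired analysis was possible because each age has a single value, and for the same reason no replicate was left out. Keratins at least 2-fold lower were 2, and 1 with the same summed FPKM at both ages without microRNA and small nucleolar RNA genes, where Krt10 was at -0.98. They were 3, with Krt4 added, without a filter or when genes listed at 0 at one age were kept. Over all genes the share was 0.66% in the main setting and 0.578% with that scaling. It was 0.715% without a filter and 1.04% with the genes listed at 0 at one age kept. Keratins at least 2-fold higher were 0, and 1 at a 1.5-fold threshold (Krt79), 1 without a filter and 1 when genes listed at 0 at one age were kept (Krt6a in both). Over all genes the shares in these 4 settings were 0.318%, 0.811%, 0.381% and 0.561%. Keratins with a lower value were 19 of 26, and 32 of 49 without a filter, where the median change was -0.031 in place of -0.24 because genes near 0 FPKM were added. Over all genes the shares of lower values were 53.7% and, without a filter, 52.4%. Under the other filters, the pseudocount of 0.1 and both scalings, the median lay between -0.24 and -0.14, and the median of all genes moved to 0.07 at most. The 20 keratins that share under 10% of their 50-base stretches with other genes held 15 lower ones, beside 53.7% of all genes. The keratin share of summed FPKM was 3.68% and 2.87% at 2 and 6 months, 4.03% and 3.22% without microRNA and small nucleolar RNA genes, and 2.91% and 2.67% when genes listed at 0 at one age were left out too. The last of these, the choice to keep genes listed at 0 and the limit on shared stretches were set after the data had been seen.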

Other observations

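The keratin-associated proteins, which bind hard keratins into the matrix of the hair shaft, were mostly listed at 0. Of 52 Krtap genes in the table, 38 were listed at 0 at both ages, and 2 reached a mean of 1 FPKM with values at both ages. Krtap3-2 was at 3.18 FPKM at 2 months against 2.09 FPKM at 6 months, and Krtap3-3 at 3.12 FPKM and 4.06 FPKM. The hard keratins Krt32, Krt36 and Krt84 had 25.4 FPKM or more at both ages.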
